A study of Mus musculus with 7 samples.

Results

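The 37 genes described here are markers and effector genes of microglia and macrophages, taken from a list of names, and all 37 were found by gene symbol among the 49315 gene identifiers of the count tables. They were followed in RNA-seq libraries of 7 cultures of primary mouse oligodendroglia. 4 control cultures came from Klf13 wildtype pups and 3 knockout cultures from pups in which Klf13, a gene for a zinc finger transcription factor of the Krüppel-like family, was constitutively deleted in every tissue. Cells of both groups had been taken from the dissociated brain of newborn mice of both sexes, grown as mixed glia, shaken off, depleted of microglia and kept for 6 days in SATO medium with thyroid hormone, in which oligodendrocyte precursors differentiate. The samples are labelled as biological replicates, and since nothing says whether cultures shared a litter, p-values measure the spread between these cultures.

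Microglia are the resident macrophages of the brain. They arise from the yolk sac, depend on signals through the receptor Csf1r, and in the healthy brain survey their surroundings with sensors such as the fractalkine receptor Cx3cr1 and the nucleotide receptor P2ry12. On contact with debris, for example of myelin, they lower these homeostatic genes and raise another set that needs the lipid receptor Trem2 and holds Lpl, Cst7, Spp1, Gpnmb and Clec7a. Macrophages of the meninges and perivascular spaces are a separate lineage and carry Mrc1 and Cd163. In cultures prepared by shake-off, microglia sit on the same glial layer as the precursors and are known to come off with them.

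Library totals on genes lay between 24507471 and 59596479 counts, and the filter on low counts left 18352 genes. The normalized counts used below are the deposited counts scaled to the mean effective library size. Klf13 itself was at 10915, 11769, 11999.5 and 10669.9 in control replicates 1 to 4 and at 802, 876 and 961 in knockout replicates 1 to 3, so every library matched its label. Of the labelled cell type, the markers Mbp, Mag, Mog, Cnp, Myrf, Sox10 and Olig2 were present in all 7 libraries. 1 library stood apart for the genes of this report. Control replicate 3 had the highest normalized count of all 7 libraries for 37 of the 37 members, while over all tested genes it was the highest for 20.2%.

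Together, the members took 0.246%, 0.198%, 0.872% and 0.265% of the counts in the controls in order of replicate, against 0.217%, 0.242% and 0.437% in knockout replicates 1 to 3. At this depth the 95% Wilson interval of the share was 0.869% to 0.875% in control replicate 3 and 0.435% to 0.439% in knockout replicate 3, which covers counting error only. The number 3 cultures of both groups thus carried the largest share, and the remaining 5 libraries lay between 0.198% and 0.265%. For the median member, control replicate 3 was 3.91 times the mean of the other 3 controls, against 0.986 for the median of all tested genes. A ratio of at least 2 was reached by 35 of the 36 members that passed the filter and by 5.49% of all tested genes. Knockout replicate 3 was second highest for 34 of 36 members, and for the median member it was 2.15 times the mean of the other knockouts, against 1.00 over all tested genes. In bulk RNA, more cells of a type and more RNA of these genes per cell cannot be told apart.

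**Figure D1:**
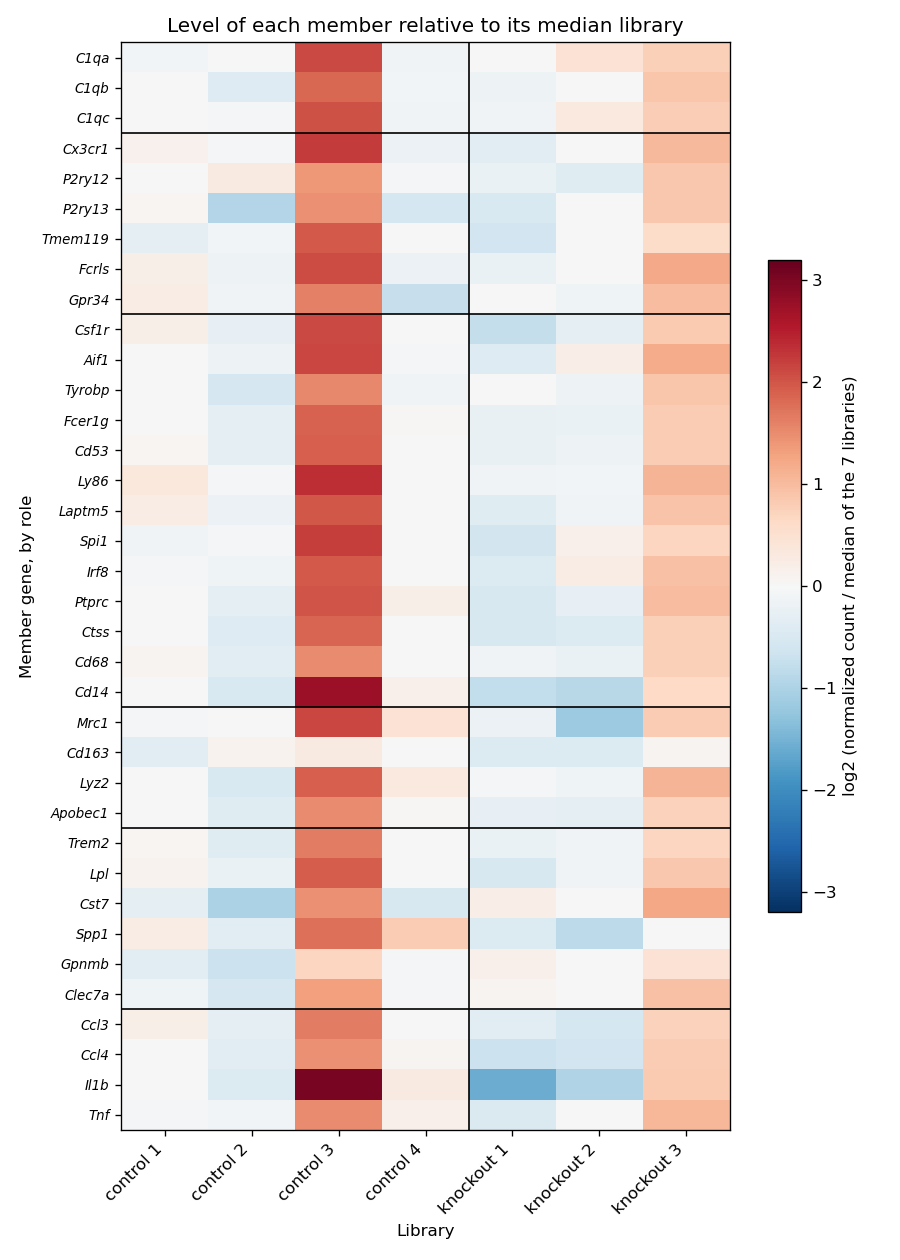
Each row is 1 of the 36 tested members and each column 1 library, and the colour gives log2 of the normalized count over the gene's median of the 7 libraries. Horizontal lines divide the 6 role groups, which run from C1q chains at the top to cytokines at the bottom. Control 3 is red in nearly every row and knockout 3 is paler red, whereas Cd163 stays near its median in all 7 libraries.

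Between knockout and control, none of the 36 tested members passed the threshold of 0.05 on the adjusted p (quasi-likelihood test of edgeR, Benjamini-Hochberg), with 0 lower and 0 higher. Over all tested genes, 12.2% were called lower and 11.6% higher, and limma voom also called 0 of the 36 members. DESeq2 called 0 of the 35 members to which it gave a p-value, and it gave none to Cd14. With the further limit of 1 on the absolute log2 fold change, 3.08% of all tested genes were lower and 3.97% higher, and again 0 members. At an unadjusted p under 0.05 there was 1 member, Spp1, against 36.6% of all tested genes. Adjusted p-values of the members ran from 0.118 to 0.955. Their log2 fold changes were below 0 for 33 members and above 0 for 3, with a median of -0.42 beside -0.0037 over all tested genes. With limma voom the median of the members was -0.22. The direction depended on which number 3 cultures were in the fit. Without control replicate 3 alone the median was 0.30, 31 members lay above 0 and 5 below, and again no member was called (11.1% of all tested genes were lower and 9.54% higher), with 3 at an unadjusted p under 0.05 (C1qa, Cst7 and Gpnmb) against 35.3% of all tested genes, and adjusted p-values from 0.0811 to 0.947. With the number 3 cultures of both groups left out, 25 members lay below 0 and 11 above, with a median of -0.14. With the replicate number as a block, 33 lay below 0 and 3 above, with a median of -0.40 and 0 members called.

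The spread between cultures also set what these data could resolve. The median standard error of the log2 fold change was 0.60 for the members and 0.16 for all tested genes, and the median width of the 95% interval was 2.82 against 0.73. For 34 of the 36 members the interval held a log2 fold change of -1, and for 13 it held 1, so that changes of that size lay within the uncertainty of the estimates. In the fit with the replicate block the intervals were narrower, 22 members held -1 and 1 held 1. Intervals below 0 were found there for 9 members (P2ry12, Csf1r, Ly86, Ctss, Cd14, Mrc1, Spp1, Ccl3 and Il1b) and above 0 for none, while 35.7% of all tested genes had an unadjusted p under 0.05 in this fit. Set against the control of the same number, 12 members were lower in the knockout of each of the 3 pairs and 0 were higher in each, beside 29.1% and 28.7% of all tested genes. The labels do not say that equal numbers share a preparation, and correlations between the cultures did not single out the numbered pairs. The members' normalized counts overlapped between the groups for all 36, while groups of 36.2% of all tested genes did not overlap. When control replicate 3 was left out, 4 members (C1qa, Cst7, Gpnmb and Clec7a) were higher in every knockout than in the 3 controls, which is a smaller share than the 21.1% of all tested genes that were so.

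**Figure D2:**
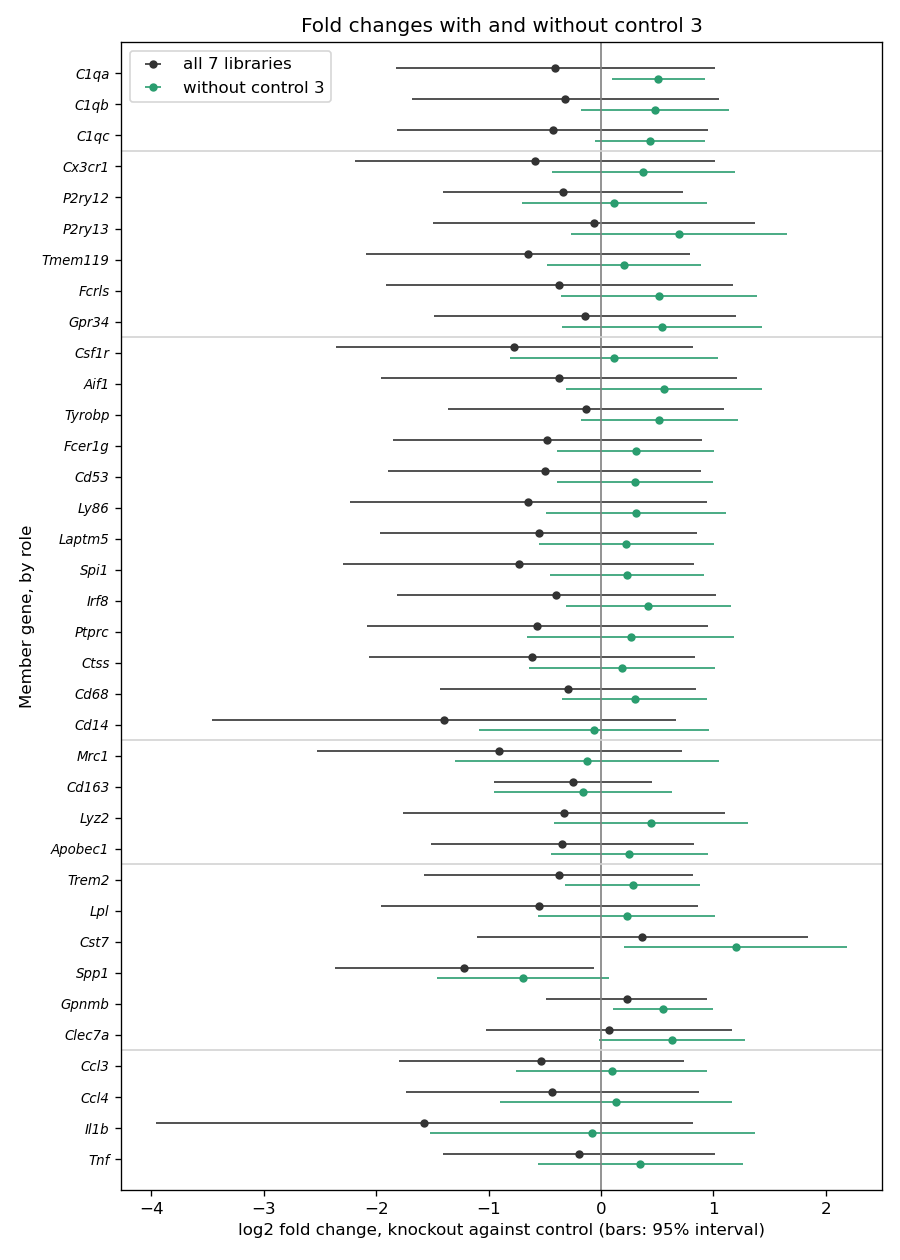
Log2 fold changes of the 36 tested members, knockout against control, with 95% intervals from the edgeR quasi-likelihood fit, for all 7 libraries (black) and without control 3 (green). The black points lie left of 0 for 33 members, the green points right of 0 for 31, and the black intervals of all members but Spp1 cross 0.

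The C1q chains A, B and C form the recognition molecule that starts the classical complement cascade, and in brain they are made by microglia. Their genes lie beside each other on chromosome 4 of GRCm38, C1qa at chr4:136895917-136898803 on the minus strand with C1qc and C1qb next to it. C1qa was at 4631, 4882, 21476 and 4595 normalized counts in control replicates 1 to 4 and at 4942, 6799 and 8365 in knockout replicates 1 to 3. C1qb was at 5364, 4000.1, 19021 and 5076 in the controls and at 4797, 5424 and 9899 in the knockouts, in the same order of replicates. C1qc was at 4196, 4042, 17347 and 3906 in the controls and at 3885, 5243 and 7285 in the knockouts. For all 3 chains control replicate 3 stood far above every other library, and the order of knockout replicates 1, 2 and 3 was the same. The means of C1qa were 8896 ± 8388 (SD, n = 4) in the controls and 6702 ± 1714 (SD, n = 3) in the knockouts, a log2 fold change of -0.41 (95% interval -1.83 to 1.01) with an edgeR adjusted p of 0.682. Without control replicate 3 it was 0.51 (95% interval 0.10 to 0.93, edgeR adjusted p 0.0831), and the values for C1qb and C1qc were 0.48 and 0.44. Without both number 3 cultures C1qa was at 0.32 (95% interval -0.01 to 0.65, edgeR adjusted p 0.161), and with the replicate block at -0.26 (95% interval -1.17 to 0.65, edgeR adjusted p 0.654). In knockout replicate 3 the chains were 1.42 to 1.94 times the mean of the other knockouts.

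Homeostatic microglia were represented by 7 members, and 6 of them passed the filter. Cx3cr1, the receptor for the neuronal chemokine fractalkine, was at 3567, 3128, 15287 and 2839 in control replicates 1 to 4 and at 2501, 3224 and 6638 in knockout replicates 1 to 3. Fcrls, an Fc receptor-like gene of mouse microglia, was at 3143, 2456, 11702 and 2403 in the controls and at 2358, 2742 and 6312 in the knockouts. Tmem119, a membrane protein that marks resident microglia, was at 178, 205, 850.4 and 221 in the controls and at 143, 219 and 329.8 in the knockouts. Control replicate 3 was the highest and knockout replicate 3 the next for these 3 genes, and the other 5 libraries of both groups were mixed in order. P2ry12, the ADP receptor that steers microglial processes, was at 95.9, 117, 253 and 93.6 in the controls and at 83.1, 73.5 and 173 in the knockouts. P2ry13, a related ADP receptor beside it on chromosome 3, was at 78.3, 39.2, 208 and 51.5 in the controls and at 54.2, 75.6 and 136 in the knockouts. Gpr34, a receptor for lysophosphatidylserine, was at 170.1, 134, 445 and 86.1 in the controls and at 144, 131 and 286 in the knockouts. P2ry12 and P2ry13 lie opposite to Med12l, Gpr34 opposite to Cask, and the span of Cx3cr1 overlaps 6 genes on the other strand, among them Wdr48. Because the strand setting of the counting was not stated, some of these reads may belong to the partner gene. Siglech, a sialic acid-binding lectin, did not pass the filter, with raw counts of 2, 3, 4 and 0 in control replicates 1 to 4 against 0, 1 and 3 in knockout replicates 1 to 3. A count of 0 allows up to 3 counts in a library, so its level was at or near the floor throughout. The 6 tested genes had log2 fold changes from -0.65 to -0.063 (edgeR adjusted p 0.506 to 0.955) and from 0.12 to 0.69 without control replicate 3.

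Receptors, adaptors and lysosomal genes shared by microglia and other myeloid cells made up the largest role group with 13 members. Csf1r, the receptor for Csf1 and Il34 on which microglia depend for survival, was at 3411, 2507, 13151 and 3016 in control replicates 1 to 4 and at 1793, 2434 and 5433 in knockout replicates 1 to 3. With the replicate block its log2 fold change was -0.75 (95% interval -1.35 to -0.15, edgeR adjusted p 0.0834). Its span overlaps that of Hmgxb3 on the other strand, so the same limit on its reads holds. Aif1, the actin-binding protein known as Iba1 in histology, was at 396, 353, 1745 and 378 in the controls and at 298, 458 and 896 in the knockouts. Ptprc, the leukocyte phosphatase CD45, was at 811, 661, 3283 and 923 in the controls and at 572, 678 and 1610.0 in the knockouts. In each of them control replicate 3 was more than 4 times the mean of the other controls, and knockout replicate 3 more than 2 times that of the other knockouts. Tyrobp, the adaptor DAP12 that carries the signal of Trem2, was at 1901, 1298, 5458 and 1765 in the controls and at 1892, 1702 and 3516 in the knockouts. Fcer1g, the common gamma chain of Fc receptors, was at 1096, 878, 4026 and 1118 in the controls and at 935, 946 and 1939 in the knockouts. Both adaptors had values in knockout replicates 1 and 2 within the range of control replicates 1, 2 and 4. Cd53, a tetraspanin of leukocytes, was at 1015, 780.3, 3662 and 966 in the controls and at 821, 861 and 1708 in the knockouts. Ly86, the partner of a Toll-like receptor relative, was at 807, 629, 3287 and 641 in the controls and at 590.4, 604 and 1367 in the knockouts. Laptm5, a lysosomal membrane protein of blood cells, was at 3867, 2846, 12887 and 3258 in the controls and at 2511, 3002 and 6126 in the knockouts.

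The lysosomal genes, too, were highest in control replicate 3 and second highest in knockout replicate 3. Ctss, a cysteine protease of antigen-presenting cells, was at 3868, 2894, 14171 and 3919 in the controls and at 2728, 2842 and 6577 in the knockouts. Cd68, a lysosomal glycoprotein of macrophages, was at 2946, 2128, 7921 and 2754 in the controls and at 2560.1, 2382 and 4677 in the knockouts. Cd14, the coreceptor for bacterial lipopolysaccharide, was at 309, 221, 2071 and 344 in control replicates 1 to 4 and at 181, 167 and 485 in knockout replicates 1 to 3, and control replicate 3 exceeded the mean of the other controls 7.10 times, the second largest ratio among the members. Its means were 737 ± 891 (SD, n = 4) and 278 ± 179.9 (SD, n = 3), with a log2 fold change of -1.40 ± 0.88 (SE) and an edgeR adjusted p of 0.305. Leaving out control replicate 3 alone brought the log2 fold change of Cd14 to -0.059. Without both number 3 cultures it was -0.75 (95% interval -1.29 to -0.21, edgeR adjusted p 0.0717), and with the replicate block it was -1.15 (95% interval -2.03 to -0.27, edgeR adjusted p 0.0768). Over the 13 genes, log2 fold changes ran from -1.40 to -0.13 with a median of -0.56, and without control replicate 3 12 of the 13 lay above 0 with a median of 0.30.

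**Figure D3:**
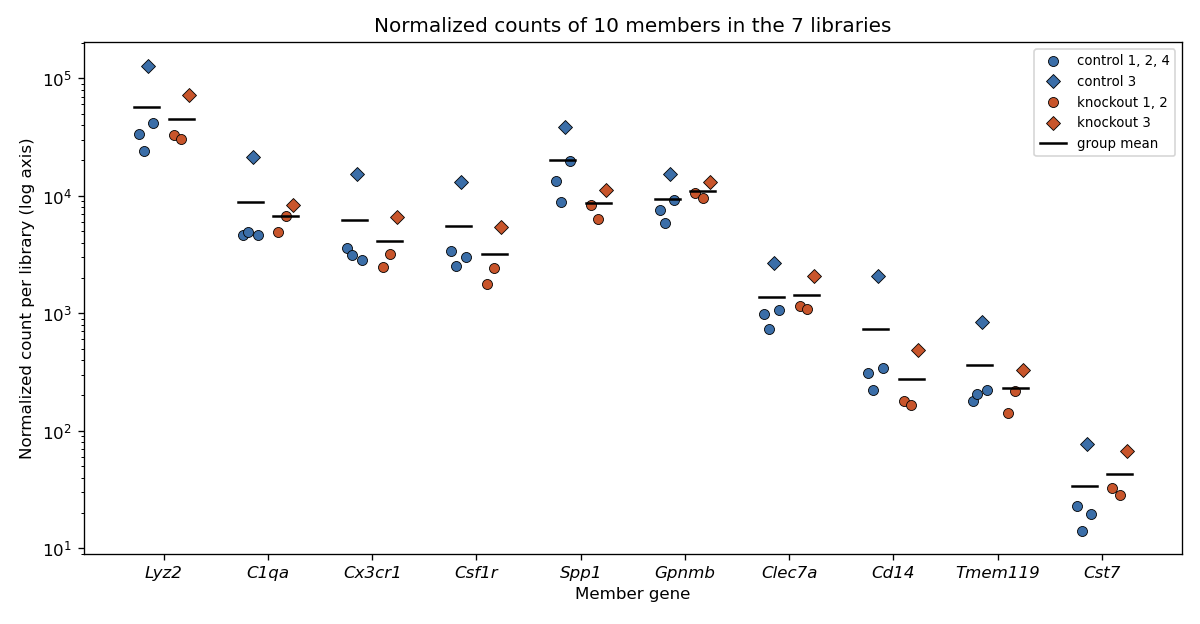
Normalized counts of 10 members on a log axis, 1 point per library, with controls in blue, knockouts in orange, the number 3 culture of each group as a diamond and the group mean as a line. In all 10 genes the blue diamond is the highest point, and the orange circles lie above the blue circles for C1qa, Gpnmb, Clec7a and Cst7 and below them for Csf1r, Spp1 and Cd14.

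Spi1 encodes PU.1, the ETS-domain transcription factor that specifies macrophages and microglia, and Irf8 encodes a factor that binds with it. Spi1 was at 527, 557, 2656 and 569 in the controls and at 376, 639.9 and 916 in the knockouts. Irf8 was at 695, 648, 2794 and 716 in the controls and at 527, 851 and 1364 in the knockouts. Control replicate 3 was 4.82 and 4.07 times the mean of the other controls for Spi1 and Irf8, and neither was called (edgeR adjusted p 0.484 and 0.686). The promoters of the members were searched for AGGAAGT, a form of the purine-rich ETS motif that PU.1 recognises. RefSeq start sites on GRCm38.p6 were matched for 28 of the 37 members, and not for Spi1, C1qa, Lpl, Gpr34, Tmem119, Tyrobp, Ccl4, Csf1r and Cd14. Within the 250 bases before the start and on either strand, AGGAAGT was found for 10 of the 28 members (35.7%), namely C1qb, C1qc, Cst7, Fcrls, Lyz2, Mrc1, P2ry12, Ptprc, Spp1 and Tnf, and for 8.8% of all 27025 genes with a window. Overlapping forms searched were GGAAGT with 50% of members and 22.2% of all genes, GAGGAA with 57.1% and 25.9%, GAGGAAGT with 7.14% and 2.79%, and AGAGGAAG with 10.7% and 4.27%. A match is a run of letters and not a bound site, and whether it bears on the levels in these libraries was not tested. The 130 bases before the start are shown for a C1q chain, a homeostatic gene, the most abundant member and 2 activated genes whose fold changes had opposite signs, 5′ to 3′ on the strand of the gene with AGGAAGT or its reverse complement in capitals.
C1qb promoter, chr4:136886201-136886330, minus strand: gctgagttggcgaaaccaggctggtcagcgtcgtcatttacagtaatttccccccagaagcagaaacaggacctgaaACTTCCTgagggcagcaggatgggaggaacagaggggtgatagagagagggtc
P2ry12 promoter, chr3:59262986-59263115, minus strand: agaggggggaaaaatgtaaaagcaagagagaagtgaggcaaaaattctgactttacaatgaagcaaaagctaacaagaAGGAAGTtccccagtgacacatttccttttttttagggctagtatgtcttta
Lyz2 promoter, chr10:117282273-117282402, minus strand: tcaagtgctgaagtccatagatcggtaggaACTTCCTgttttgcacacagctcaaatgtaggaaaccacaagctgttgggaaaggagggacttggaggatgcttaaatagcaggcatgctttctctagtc
Cst7 promoter, chr2:150570285-150570414, plus strand: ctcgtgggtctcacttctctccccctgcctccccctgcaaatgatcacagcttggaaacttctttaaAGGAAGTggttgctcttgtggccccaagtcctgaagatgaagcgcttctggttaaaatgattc
Spp1 promoter, chr5:104434981-104435110, plus strand: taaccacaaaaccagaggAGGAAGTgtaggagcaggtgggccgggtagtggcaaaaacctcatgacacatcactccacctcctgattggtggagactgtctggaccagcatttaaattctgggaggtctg
The motif began 53, 52, 100, 63 and 112 bases before the start in C1qb, P2ry12, Lyz2, Cst7 and Spp1, and it lay in reverse orientation in C1qb and Lyz2.

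Lyz2 encodes lysozyme M, an enzyme of macrophages and neutrophils, and was the member with the highest normalized count. It was at 33807, 24130.2, 128223 and 42039 in control replicates 1 to 4 and at 33029, 30740.1 and 72459 in knockout replicates 1 to 3. The means were 57049.5 ± 48010.0 (SD, n = 4) and 45409 ± 23454 (SD, n = 3), with a log2 fold change of -0.33 ± 0.61 (SE) and an edgeR adjusted p of 0.745. Its near-identical neighbour Lyz1 could share reads with it, which unique counting leaves out or assigns to 1 copy. Apobec1, a cytidine deaminase that edits transcripts in macrophages, was at 1001, 763, 2837 and 1024 in the controls and at 827, 819 and 1666 in the knockouts. Mrc1, the mannose receptor of border macrophages, was at 36.5, 37.2, 163 and 51.5 in the controls and at 32.5, 16.5 and 65.5 in the knockouts, so that it stayed low even in control replicate 3. Cd163, the haemoglobin scavenger receptor of these macrophages, was at 9.45, 13.1, 14.9 and 12.2 in the controls against 9.03, 8.94 and 12.9 in the knockouts. In contrast to the other members, Cd163 differed by only 1.66 times between its highest and lowest library, and control replicate 3 was 1.28 times the mean of the other controls.

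On the RPKM scale (normalized counts scaled to library size and kilobases of exon), the median over libraries of Lyz2 was 608 (434 to 2305), with the lowest and highest library in parentheses. Next came Spp1 at 156 (87.7 to 532), C1qb at 112 (83.7 to 398) and C1qa at 108 (101 to 469.9), whose ranges overlap, so their order is not fixed. Ctss at 64.8 (45.7 to 237) and Tyrobp at 64.6 (44.3 to 186) followed. Of the homeostatic genes, Fcrls at 26.7 (23.0 to 114) and Cx3cr1 at 16.3 (12.6 to 77.2) overlapped and stood above Tmem119 at 2.15 (1.40 to 8.36), which overlapped with Gpr34 at 1.57 (0.938 to 4.84) and P2ry12 at 0.857 (0.657 to 2.26). The lowest members were Mrc1 at 0.133 (0.0589 to 0.584), Cd163 at 0.0507 (0.0372 to 0.0619) and Siglech at 0.0154 (0 to 0.0308). Lyz2, Spp1, C1qb and C1qa thus had the highest medians per length on this list, and the border macrophage genes Mrc1 and Cd163 were among the lowest. Other border macrophage genes were not as low. A list of 10 of them summed to 6674, 5476, 19544 and 5785 normalized counts in the controls and to 5169, 6336 and 11642 in the knockouts.

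The activated members had fold changes of both signs, but none of them was called and a difference between members was not tested. Trem2, the lipid receptor of the activated state, was at 1679.7, 1236, 5005 and 1615 in control replicates 1 to 4 and at 1396, 1495 and 2606 in knockout replicates 1 to 3. Lpl, lipoprotein lipase, was at 8726, 6989, 30592 and 8034 in the controls and at 5653, 7429 and 14724 in the knockouts. Both followed the common order of libraries, and Lpl is also known from oligodendrocyte precursors. Spp1, the secreted phosphoprotein osteopontin, was at 13302, 8831, 38541 and 19861 in the controls and at 8356, 6354 and 11267 in the knockouts. Here control replicate 4 was second highest, and knockout replicate 3 stood only 1.53 times above the mean of the other knockouts. The means were 20134 ± 13081 (SD, n = 4) and 8659 ± 2471 (SD, n = 3), and the log2 fold change of -1.22 (95% interval -2.37 to -0.065) was the only one of the members with an interval below 0 in the fit without the block, at an edgeR adjusted p of 0.118. Without both number 3 cultures it was -0.93 (edgeR adjusted p 0.120), and with the replicate block it was -0.97 (95% interval -1.63 to -0.31, edgeR adjusted p 0.0562). It was -0.69 without control replicate 3 alone (edgeR adjusted p 0.175), and without control replicate 2 it was -1.47 and just passed the threshold (edgeR adjusted p 0.05).

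Gpnmb, Cst7 and Clec7a were the 3 members with log2 fold changes above 0. Gpnmb, a transmembrane glycoprotein of phagocytes, was at 7503, 5853, 15213 and 9301 in the controls and at 10650.3, 9497 and 13112 in the knockouts. Cst7, the cysteine protease inhibitor cystatin F, was at 23.0, 14.1, 77.7 and 19.7 in the controls and at 32.5, 28.2 and 67.0 in the knockouts. Clec7a, the beta-glucan receptor dectin-1, was at 983, 738, 2682 and 1059 in the controls and at 1148, 1078 and 2074 in the knockouts. For each of the 3 genes, all knockouts lay above control replicates 1, 2 and 4 and below control replicate 3. Log2 fold changes were 0.23 (95% interval -0.49 to 0.95) for Gpnmb, 0.37 (95% interval -1.11 to 1.84) for Cst7 and 0.073 (95% interval -1.02 to 1.17) for Clec7a, with edgeR adjusted p-values of 0.646, 0.724 and 0.932. Without control replicate 3 they were 0.55, 1.20 and 0.63 with edgeR adjusted p-values of 0.0811, 0.0881 and 0.152. Without both number 3 cultures they were 0.41, 0.67 and 0.26, and with the replicate block 0.33, 0.36 and 0.12 (edgeR adjusted p 0.259, 0.509 and 0.667). Cst7 was below 0 (-0.15) without knockout replicate 3, as was Clec7a (-0.29).

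The 4 cytokine genes were detected in every library at low levels. Il1b, the inflammasome product interleukin-1 beta, was at 16.2, 12.1, 134 and 19.7 in control replicates 1 to 4 and at 5.42, 8.25 and 28.9 in knockout replicates 1 to 3. Control replicate 3 was 8.37 times the mean of the other controls, the largest such ratio among the members, and the raw counts of knockout replicates 1 to 3 were 3, 12 and 38. Its log2 fold change was -1.57 ± 1.02 (SE) with an edgeR adjusted p of 0.317, and -0.078 without control replicate 3 alone. Without both number 3 cultures it was -1.13 (95% interval -2.21 to -0.05, edgeR adjusted p 0.136), and with the replicate block it was -1.57 (95% interval -2.70 to -0.45, edgeR adjusted p 0.0643). Tnf, the tumour necrosis factor, was at 70.2, 67.4, 207 and 81.4 in the controls and at 52.4, 72.2 and 150.0 in the knockouts. The chemokine genes Ccl3 and Ccl4, neighbours on chromosome 11 that recruit leukocytes, gave the same picture. Ccl3 was at 149.9, 109, 410.3 and 132 in the controls and at 105, 89.4 and 219 in the knockouts. Ccl4 was at 60.8, 47.3, 167 and 64.6 in the controls and at 37.9, 39.9 and 107 in the knockouts. The cytokines thus showed the same high number 3 cultures as the receptor genes.

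To compare members within a library, each was set against the summed normalized counts of 20 other microglia genes (among them Olfml3, P2ry6, Itgam, Itgb2 and Runx1), a list made with earlier results of these data known and a ratio chosen after the data were seen. The median range of the members over the 7 libraries was 5.15-fold as a normalized count and 1.63-fold as this ratio. Trem2, for example, was at 78.7, 70.1, 83.0 and 83.6 per 1000 counts of these genes in control replicates 1 to 4 and at 79.2, 80.3 and 78.0 in knockout replicates 1 to 3. Groups did not overlap in the ratio for 4 of 36 members, of which Tyrobp, Cst7 and Clec7a were higher in the knockouts and Spp1 lower. Over all tested genes, set against the same sum, 3.06% were higher and 2.01% lower without overlap. The sum was 60271 in control replicate 3 and 33394 in knockout replicate 3, against 17612 to 21349.5 in the other libraries. Dividing by it lowers those 2 libraries for genes that lack the same rise, which favours overlap. Undivided, groups of 36.2% of all tested genes did not overlap, so the low shares of the ratio are no measure for the members. Cst7 was at 1.08, 0.799, 1.29 and 1.02 per 1000 in the controls against 1.85, 1.51 and 2.01 in the knockouts. Clec7a was at 46.0, 41.9, 44.5 and 54.8 in the controls against 65.2, 57.9 and 62.1 in the knockouts. Spp1 was at 623, 501, 639 and 1028 in the controls against 474, 341 and 337 in the knockouts. For these 3 activated genes the ratio separated all knockouts from all controls, with control replicate 3 inside the range of the other controls for Clec7a and Spp1 and above it for Cst7. Tyrobp was at 89.0, 73.7, 90.6 and 91.4 in the controls against 107, 91.4 and 105 in the knockouts, so that control replicate 4 and knockout replicate 2 nearly met. By contrast, the ratio of Cx3cr1 overlapped, with 167, 178, 254 and 147 in the controls against 142, 173 and 199 in the knockouts. Cd14 was at 14.5, 12.6, 34.4 and 17.8 in the controls against 10.3, 8.97 and 14.5 in the knockouts, and control replicate 3 stayed far above the rest.

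When the mean log2 level of those genes entered the edgeR model as a covariate, a fit chosen after the data were seen, 3 members were called higher and 1 lower, where 12.1% and 13.2% of all tested genes were called in these directions. Cst7 had a log2 fold change of 0.89 (edgeR adjusted p 0.0309), Clec7a of 0.45 (edgeR adjusted p 0.0226) and C1qb of 0.24 (edgeR adjusted p 0.0475). Cd14 had a log2 fold change of -0.50 (edgeR adjusted p 0.0450). Spp1 was at -0.83 (edgeR adjusted p 0.0599), Gpnmb at 0.46 (edgeR adjusted p 0.0647), Cx3cr1 at 0.052 and Csf1r at -0.20. The median of the members was 0.049 in this fit, beside 0.012 over all tested genes. The share called among the members was below that of all genes in both directions.

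**Figure D4:**
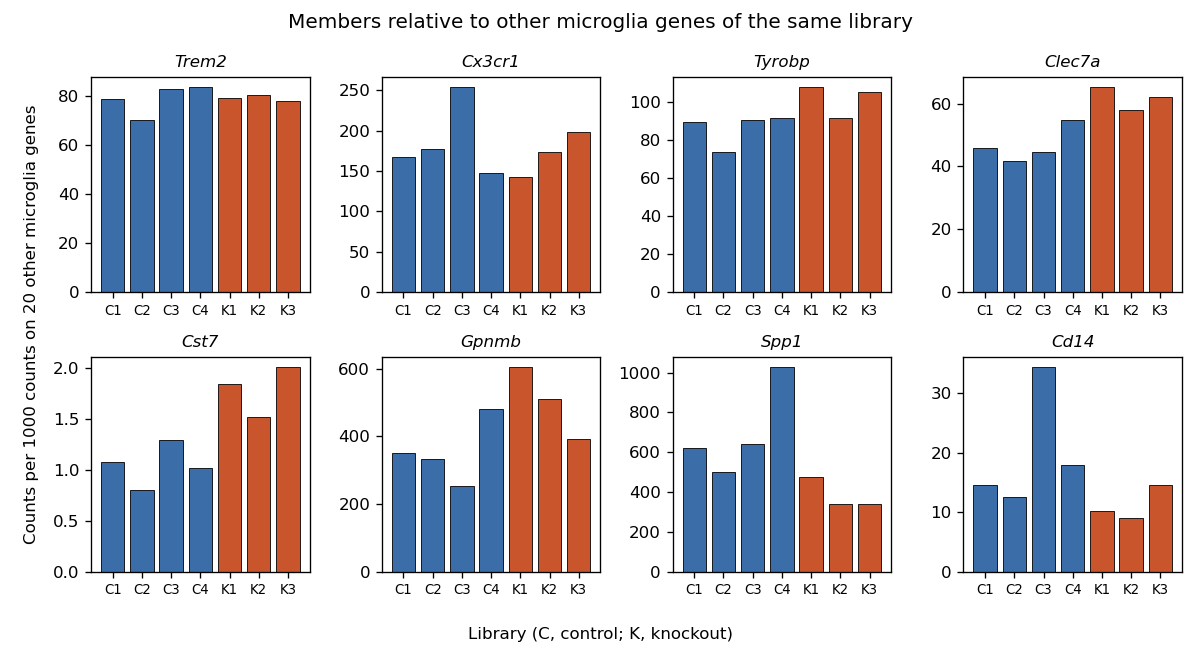
Normalized counts of 8 members per 1000 summed normalized counts of 20 other microglia genes, 1 bar per library, with controls in blue and knockouts in orange. Trem2 is nearly level over the 7 bars, Cst7 and Clec7a are higher in all 3 knockouts than in all 4 controls, Spp1 is lower in all 3 knockouts, and Cd14 stands out in control 3.

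Of 20 further microglia genes, 19 were tested and none was called, and 18 of the 19 were highest in control replicate 3, beside 20.2% of all tested genes. Plcg2, a phospholipase of immune receptors, had a log2 fold change of -0.34 (edgeR adjusted p 0.323). Sall1, named after its values were seen, was the exception to the order, at 1754, 1877, 1494 and 1200.0 in the controls against 1995, 2121 and 1954 in the knockouts. Of 10 further border macrophage genes 6 were tested and none was called, and the scavenger receptor Stab1 (-0.22) and Ms4a7 (-0.44) had the highest counts. Folr2, a folate receptor named after its values were seen, was at 139, 118, 400.1 and 227 in the controls against 61.4, 53.6 and 104 in the knockouts, with a log2 fold change of -1.59 (edgeR adjusted p 0.0503), and in the fit with replicate number as a block it passed at -1.46 (edgeR adjusted p 0.0124). Of 5 genes of MHC class II, 4 were tested and 1 called, beside 12.2% lower and 11.6% higher over all tested genes. It was H2-Ab1, which was lower in the knockouts at -0.84 (edgeR adjusted p 0.0188), with 199.8, 262, 279 and 230.3 in the controls against 139, 162 and 107 in the knockouts, and did not follow the order of the other genes.

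Of 16 further genes of activated microglia, 15 were found by symbol, 14 tested, 3 called lower and 0 higher, beside 12.2% lower and 11.6% higher over all tested genes. These were Fabp5, a fatty acid-binding protein (log2 fold change -0.69, edgeR adjusted p 0.000888), the protease gene Ctsl (-0.72, edgeR adjusted p 0.0136) and the tetraspanin gene Cd63 (-0.42, edgeR adjusted p 0.0466). All are also expressed by other glia, and in them control replicate 3 was at most 1.36 times the mean of the other controls. Cd52, a surface glycoprotein of leukocytes named after its values were seen, was called lower in the fit with the replicate block (-0.90, edgeR adjusted p 0.0313, against 0.448 without the block).

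Among 10 ligands and signals that reach microglial receptors, 2 were higher and 2 lower in the knockouts, beside 11.6% and 12.2% of all tested genes, and these calls held without control replicate 3. Cx3cl1, the fractalkine that binds Cx3cr1, was at 949, 1046, 1009 and 791 in control replicates 1 to 4 and at 1271, 1362 and 1352 in knockout replicates 1 to 3, with a log2 fold change of 0.49 (95% interval 0.25 to 0.72, edgeR adjusted p 0.0144). Cd200, a membrane ligand that restrains microglia through its receptor, was at 1185, 1275, 905 and 1233 in the controls against 2156, 2163 and 1605 in the knockouts, with a log2 fold change of 0.78 (95% interval 0.43 to 1.13, edgeR adjusted p 0.0108). Groups did not overlap for either gene, as for 36.2% of all tested genes. Cd47, a signal against phagocytosis, was at 5817, 5421, 6271 and 5816 in the controls against 4542, 4267 and 4791 in the knockouts, a log2 fold change of -0.36 (edgeR adjusted p 0.00958). Tgfb2, a growth factor of the family that maintains homeostatic microglia, was at 1949.7, 1943, 1636 and 1719 in the controls against 1468, 1501 and 1319.9 in the knockouts, a log2 fold change of -0.34 (edgeR adjusted p 0.0288). The Csf1r ligands Csf1 and Il34 were not called, with log2 fold changes of -0.40 and -0.34.

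Markers of other cells were counted beside these results. Of 16 markers of lymphocytes, granulocytes, monocytes and red cells, 5 had 0 counts in all 7 libraries (S100a9, Ly6g, Ly6c2, Hba-a1 and Hbb-bs), 2 passed the filter (Cd4 and Alas2), and their summed normalized counts were 64.8, 43.2, 86.9 and 47.7 in the controls against 66.8, 55.7 and 84.5 in the knockouts. The 8 genes of fibroblasts and mural cells summed to 15606, 12347, 57442 and 42371 in control replicates 1 to 4 and to 9482, 5428 and 12778 in knockout replicates 1 to 3, so that controls 3 and 4 were highest, the same 2 libraries as for Spp1. Of these only Dcn was called (-3.05, edgeR adjusted p 0.0437), and the call was lost without control replicate 3 (0.0739), as was that of the endothelial gene Cdh5 (-2.75, edgeR adjusted p 0.0483 and 0.0799). Dcn was then at -2.66 and Cdh5 at -2.45. With the replicate block Col1a1, Col1a2 and Col3a1, named after their values were seen, were called at -1.77, -2.05 and -2.06 (edgeR adjusted p 0.0109, 0.00923 and 0.00702). The part of fibroblasts and mural cells in the values of Spp1 was not tested. 6 of 8 oligodendrocyte genes were lower in the knockouts, among them Mog at -3.32, Mag at -2.69, Mbp at -1.78, Myrf at -1.15 and Cnp at -0.96. Beside the counts of these lists, 12.2% of all tested genes were called lower and 11.6% higher. All 7 astrocyte genes were higher (Gja1 at 1.44, Slc1a3 at 1.03, Aldh1l1 at 0.64, Slc1a2 at 0.61, Gfap at 0.66, Aqp4 at 1.19), as were 5 of 6 neuronal genes (Stmn2 at 1.91, Snap25 at 2.12, Tubb3 at 0.72, Rbfox3 at 1.95 and Syt1 at 1.70). Without control replicate 3 the calls of Aqp4, Rbfox3 and Syt1 were lost (edgeR adjusted p 0.0536, 0.0551 and 0.0800), which left 6 astrocyte and 3 neuronal genes, beside 9.54% of all tested genes. The log2 fold changes of Aqp4, Rbfox3 and Syt1 in that fit were 1.17, 1.87 and 1.54. 2 of 5 precursor genes were higher (Vcan at 0.50 and Ptprz1 at 0.33). With the replicate block the calls of Slc1a2 and Ptprz1 were lost (log2 fold change 0.59 and 0.33, edgeR adjusted p 0.0508 and 0.101). Control replicate 3 was the highest library for 0 of the 7 astrocyte and 0 of the 6 neuronal genes, for 4 of the 8 oligodendrocyte genes, and for 6 of the 8 genes of fibroblasts and mural cells and 3 of 3 tested endothelial genes. Over all tested genes it was the highest for 20.2%. The endothelial genes summed to 415, 270.5, 1005 and 754 in the controls and to 255, 228 and 367 in the knockouts.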

How the data were processed

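The deposited files hold raw counts per gene for each of the 7 libraries. Per the paper's methods and the submitters' processing notes, the authors trimmed reads (Trimmomatic 0.36), mapped them with STAR 2.5.2b to GRCm38 and counted unique hits in exons with Subread 1.5.2. The annotation release and the strand setting are not given in the sources used here. The spans of 11 members overlap another annotated gene, 6 of them on the other strand.

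Symbols were found for 48970 of 49315 identifiers. Counts were filtered with filterByExpr, scaled with TMM factors and fitted with edgeR 4.0.16 (R 4.3.3, glmQLFit with robust estimation, glmQLFTest, two-sided), with group as the only term. Benjamini-Hochberg adjustment covered all 18352 tested genes, with a threshold of 0.05. With the study's further limit of 1 on the absolute log2 fold change, 565 genes were lower, 729 higher and 0 of them members. Members and lists were chosen with earlier results of these data known. Each member is named with its value in every library, and from other lists every called gene, up to 6 by smallest p, or else the 2 with the highest mean normalized count, except that some genes of those lists are not reported here. Alternatives were DESeq2 1.42.0 (Wald test and size factors), limma 3.58.1 voom, upper quartile and total-count scaling, other filters, the replicate number as a block, and leaving out each library. 2 were added after the data were seen, namely the number 3 cultures left out together and the covariate of other microglia genes. Deviations from the group means of same-numbered cultures correlated at 0.11, 0.46 and 0.17 across genes, all above 0.1, and on this criterion the numbers from the labels were taken as pairing the cultures. Of the 9 differently numbered pairs, which ranged from -0.53 to 0.20, 3 were also above 0.1, so the criterion does not single out the numbered pairs. Control replicate 4 has no partner and adds nothing to the difference in that fit.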

Additional observations from a re-analysis of the deposited data

Results flagged for a closer look

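Among the 4 controls, 30 of the 37 members had 1 library apart from the other 3 by Dixon's criterion (the gap to the nearest library over the whole range, against the 95% critical value for 4 samples), and in all 30 it was control replicate 3 at the high end. Its normalized counts were 21476 for C1qa, 19021 for C1qb, 17347 for C1qc, 15287 for Cx3cr1, 253 for P2ry12, 850.4 for Tmem119, 11702 for Fcrls, 13151 for Csf1r, 1745 for Aif1, 5458 for Tyrobp, 4026 for Fcer1g, 3662 for Cd53, 3287 for Ly86, 12887 for Laptm5, 2656 for Spi1, 2794 for Irf8, 3283 for Ptprc, 14171 for Ctss, 7921 for Cd68, 2071 for Cd14, 163 for Mrc1, 2837 for Apobec1, 5005 for Trem2, 30592 for Lpl, 77.7 for Cst7, 2682 for Clec7a, 410.3 for Ccl3, 167 for Ccl4, 134 for Il1b and 207 for Tnf. Chance alone puts a library apart in about 1 in 20 groups, and over all tested genes 1 of the 4 controls stood apart on either side for 8.56%, which was control replicate 3 at the high end for 4.35%. The members varied together over the libraries, so the 30 are not separate departures from these rates. The criterion was not met for P2ry13, Gpr34, Lyz2, Spp1, Gpnmb, Cd163 and Siglech. The 3 knockouts are too few for this criterion.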

How the results depend on the processing

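Under the DESeq2 Wald test, limma voom, DESeq2 size factors, upper quartile, total counts, an unfiltered table, a minimum of 10 counts per library and the replicate block, 0 members were called (Cd14 had no p-value from DESeq2), and genes called over the whole table ranged from 1716 to 2759 lower and from 1535 to 2478 higher, beside 2246 and 2122. With the minimum of 10 counts 34 members were tested, since Cd163 and Il1b, like Siglech, fell below it. Siglech entered only the fit without the filter, and the count of members called there covers the other 36. The fit with the replicate block, whose pairing by number is not established, gave 2042 genes lower and 1741 higher and a median over the members of -0.40, with adjusted p-values of the members from 0.0562 to 0.887, 9 at an unadjusted p under 0.05 (35.7% of all tested genes) and a median interval width of 1.17 in place of 2.82. It changed no call of a member, and in the other lists it added Folr2 and Cd52 as given above and Col1a1, Col1a2 and Col3a1 (named after their values were seen) among genes of fibroblasts and mural cells (4 calls in place of 1), and it lost Slc1a2 (6 astrocyte genes in place of 7) and Ptprz1 (1 precursor gene in place of 2). Leaving out 1 library at a time gave 1254 to 2032 genes lower and 850 to 1843 higher, with the lowest counts without knockout replicate 1 (1254 and 1209) and knockout replicate 2 (1317 and 850), against 1498 and 1525 without knockout replicate 3. Members called ranged from 0 to 1 lower (Spp1 at -1.47 without control replicate 2) and from 0 to 0 higher. The median over the members ranged from -0.91 without knockout replicate 3 to 0.30 without control replicate 3, the only library whose removal turned its sign. Log2 fold changes that turned sign had as their lowest and highest values -0.61 and 0.51 for C1qa, -0.70 and 0.48 for C1qb, -0.68 and 0.44 for C1qc, -1.11 and 0.38 for Cx3cr1, -0.83 and 0.12 for P2ry12, -0.51 and 0.69 for P2ry13, -0.99 and 0.21 for Tmem119, -0.94 and 0.52 for Fcrls, -0.59 and 0.54 for Gpr34, -1.38 and 0.12 for Csf1r, -0.91 and 0.56 for Aif1, -0.53 and 0.52 for Tyrobp, -0.91 and 0.31 for Fcer1g, -0.93 and 0.30 for Cd53, -1.16 and 0.31 for Ly86, -1.04 and 0.23 for Laptm5, -1.07 and 0.23 for Spi1, -0.80 and 0.42 for Irf8, -1.17 and 0.26 for Ptprc, -1.15 and 0.19 for Ctss, -0.67 and 0.30 for Cd68, -0.84 and 0.45 for Lyz2, -0.77 and 0.25 for Apobec1, -0.72 and 0.28 for Trem2, -1.05 and 0.23 for Lpl, -0.15 and 1.20 for Cst7, -0.29 and 0.63 for Clec7a, -1.04 and 0.093 for Ccl3, -1.11 and 0.13 for Ccl4 and -0.75 and 0.35 for Tnf. Removal of control replicate 3 turned 28 members, knockout replicate 1 turned P2ry13, Gpr34, Tyrobp and Tnf, knockout replicate 2 turned P2ry13, Gpr34 and Tyrobp, knockout replicate 3 turned Cst7 and Clec7a, and each of the other controls turned Clec7a. With limma voom the median of the members was -0.22 and C1qa was at -0.060, and the values that turned sign were 0.26 for P2ry13, 0.11 for Gpr34 and 0.054 for Tyrobp, and with upper quartile scaling P2ry13 was at 0.0020. Without the number 3 cultures of both groups, 1172 genes were higher and the sign turned to 0.32 for C1qa, 0.086 for C1qb, 0.17 for C1qc, 0.24 for P2ry13, 0.087 for Gpr34, 0.023 for Aif1, 0.12 for Tyrobp and 0.016 for Irf8. With other microglia genes as a covariate, 1 member was lower and 3 were higher, the median was 0.049 and the sign turned to 0.26 for C1qa, 0.24 for C1qb, 0.19 for C1qc, 0.052 for Cx3cr1, 0.45 for P2ry13, 0.20 for Fcrls, 0.29 for Gpr34, 0.23 for Aif1, 0.31 for Tyrobp, 0.052 for Fcer1g, 0.044 for Cd53, 0.15 for Irf8, 0.11 for Cd68, 0.19 for Lyz2, 0.047 for Apobec1, 0.079 for Trem2 and 0.12 for Tnf, while Cst7 (0.89), Clec7a (0.45) and Cd14 (-0.50) kept their sign and passed the threshold. For other changes the cause was not tested. Siglech, Cd163, Il1b, Mrc1 and Cst7 rest on few reads, and the part of counting error in the spread of each member was not tested.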

Other observations

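Classical complement outside C1q was measured through 11 genes, of which 10 were tested and none was called, with a median log2 fold change of -0.19. C3ar1, the receptor for the C3a fragment, was at 2498, 1872, 9339.7 and 2494 in control replicates 1 to 4 and at 1527, 1612 and 3768 in knockout replicates 1 to 3 (log2 fold change -0.81, edgeR adjusted p 0.412). C5ar1, the receptor for C5a, was at 814, 643, 2763 and 825 in the controls against 522, 610.4 and 1239.9 in the knockouts (log2 fold change -0.67, edgeR adjusted p 0.461). Both receptors were highest in control replicate 3 and second highest in knockout replicate 3, as the C1q chains were. The cascade proteases C1ra and C1s1, named after their values were seen, had other orders. C1ra was at 33.8, 27.1, 35.4 and 32.8 in the controls and at 48.7, 34.4 and 57.9 in the knockouts, with knockout replicate 3 highest. C1s1 was at 12.2, 32.2, 25.1 and 37.4 in the controls and at 21.7, 24.1 and 32.7 in the knockouts, with control replicate 4 highest.

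Lyve1, a hyaluronan receptor of border macrophages and lymphatic vessels, did not pass the filter and is named after its values were seen. Its raw counts were 4, 7, 3 and 7 in control replicates 1 to 4 against 0, 0 and 0 in knockout replicates 1 to 3. Apoe, the apolipoprotein of astrocytes and activated microglia and likewise named after its values were seen, was at 83756, 122472, 428417 and 75831 in the controls against 100195, 192786 and 134510.0 in the knockouts. Control replicate 3 was highest for Apoe and knockout replicate 2 was second, unlike the order of the members.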
